A study of Rattus norvegicus with 172 samples.

Results

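RNA of dentate granule cells was compared between kindled rats taken at seizure stage 5 and kindled rats taken at stage 4. The comparison held 24 of the 164 rats of the series (25 of 172 arrays), chosen by their labels alone: 12 rats at stage 5 and 12 at stage 4, with 6 of each from each of 2 kindling laboratories, called A and B here. All were male Sprague-Dawley rats, the other rats of the series being kindled rats at stage 2, rats of 3 models of status epilepticus, or controls. Granule cell layers had been cut by laser from 10 µm sections, and at least 10 ng of RNA per rat was amplified and hybridised to a one-colour Affymetrix array. Laboratory A stage 4 rat 6 had a repeat array, which was averaged with the first (r = 0.993 across probe sets). Each laboratory also had 6 control and 6 stage 2 rats, so that 48 rats shared the estimate of the spread. The stimulation site, the number of stimulations and the time between the last seizure and death are not given in the sources used here, so stage cannot be told apart from a difference in any of them.

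In kindling, brief electrical stimulation of the brain is repeated until a stimulus that at first evokes little comes to evoke a generalised convulsion. Seizures are graded on a behavioural scale: stage 4 is rearing with forelimb clonus, and stage 5 adds loss of balance and falling. Granule cells relay activity from the entorhinal cortex to the hippocampus, fire sparsely at rest, and express growth factors, neuropeptides and immediate early genes after seizures. Whether granule cell RNA differs between these neighbouring stages was the question of the comparison.

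The captured cells carried the RNA of granule cells. Prox1, the transcription factor that sets granule cell identity, lay between 10.63 and 11.65 on the log2 scale (log2 of signal + 16, used throughout) over the 24 rats, and Calb1, the calcium buffer calbindin, between 9.49 and 11.24. Of 20 listed granule cell markers 15 were measured, and all 15 lay above the median of the array in all 24 rats. C1ql2, Tdo2, Lct, Pdzd2 and Glis3 were not measured. Measured genes had already passed a filter on signal above the array median in at least 6 of 164 rats. The share of all genes above it in all 24 rats is not given here, so the marker counts only describe the samples. RNA of other cells was present too: 10 of 13 astrocyte markers and 7 of 13 oligodendrocyte markers lay above the array median in all 24 rats, against 4 of 13 microglial markers, where 5 lay below it in every rat. Among markers of other neurons, 7 of 11 for CA1 and CA3 pyramidal cells and 5 of 10 for interneurons lay above it in all 24 rats. For mossy and hilar cells it was 1 of 6. Summed signal of the astrocyte list ran from 5158 to 9226 at stage 4 and from 5862 to 9204 at stage 5. For the microglial list it ran from 441.1 to 1398 and from 424.5 to 1078. Median signal per array was 27.99 to 34.17. In 6 exact permutation tests of array quality between the stages, the lowest two-sided p was 0.186 (adjusted p = 0.652). With 6 rats against 6 these tests cannot show that quality was even. Laboratory B stage 5 rat 1 had the highest log2 ratios of 3' to 5' control signal of the 24 rats, 2.77 for Gapdh and 5.06 for actin. Laboratory B stage 4 rats reached at most 2.07 and 4.24. Whether array quality contributes to any stage difference was not tested.

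Very few genes separated stage 5 from stage 4. Of 10731 genes tested with limma, 2 (0.0186%) had a Benjamini-Hochberg adjusted p under 0.05 in the average of both laboratories, and both were lower at stage 5. They were Rasd1, a small Ras-like GTP-binding protein that acts on G protein signalling, and Khdrbs2, an RNA-binding protein of the Sam68 family that controls splicing in neurons. At an unadjusted p under 0.05 stood 1042 genes (9.71%), 411 higher (3.83%) and 631 lower (5.88%). That split depended on the scaling. It was 433 higher and 613 lower with quantile normalization, but 604 higher and 445 lower with every array centred on its median. The median standard error of a gene's difference was 0.0772, and over all genes the median difference was -0.01. A difference of 2-fold or more, whatever its p, was seen in 1 gene that was higher and 5 that were lower.

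1 stage 5 rat stood apart from its group and bears on these counts. Laboratory A stage 5 rat 1 lay at or near the control level in many of the genes described below. With that rat left out, 68 genes passed (0.634%), 24 higher and 44 lower, and all 68 had the same sign in both laboratories. Selection by the average of the laboratories itself favours a shared sign. With all rats 981 of the 1042 genes at an unadjusted p under 0.05 had it, against 54.9% of all genes. Leaving out laboratory B stage 5 rat 6 gave 35 genes, 14 higher and 21 lower. Leaving out B stage 5 rat 3 gave 17, B stage 5 rat 2 gave 11 and A stage 4 rat 1 gave 10. At the other end, the count was 0 without any 1 of 14 other rats. These rats were singled out after their values were seen, and every rat stays in the values below unless stated.

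**Figure D1:**
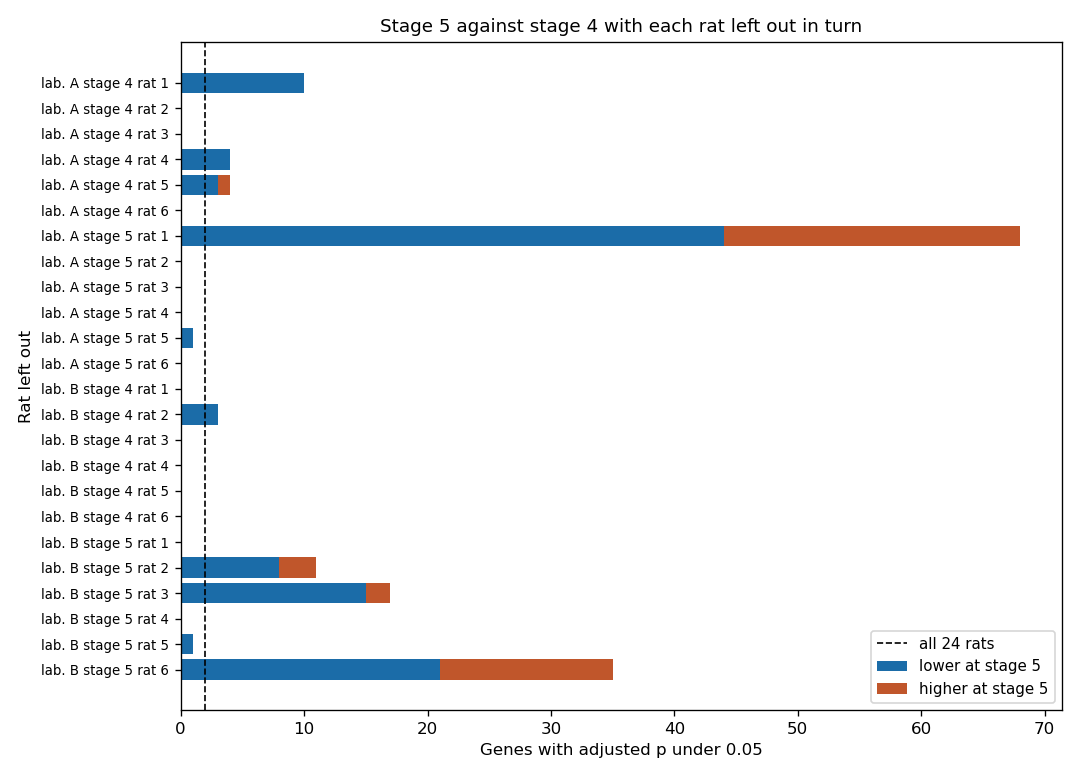
Genes with an adjusted p under 0.05 between stage 5 and stage 4 (x axis) when each of the 24 rats is left out in turn (y axis). Bars are split into genes lower and higher at stage 5, and the dashed line marks the 2 genes found with all 24 rats. The count ran from 0 to 68, the highest value coming without laboratory A stage 5 rat 1.

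Rasd1 was lower at stage 5 in both laboratories. In laboratory B, stage 4 rats lay at 8.18 to 8.79 (median 8.31) and stage 5 rats at 6.75 to 7.90 (median 7.57), with no overlap. In laboratory A the stage 4 rats ran from 7.41 to 8.07 (median 7.71) and the stage 5 rats from 7.21 to 7.63 (median 7.24), so that the ranges overlapped and 4 of 6 stage 5 rats lay below every stage 4 rat. Rasd1 fell by 0.62 ± 0.12 (standard error, n = 12 against 12; limma adjusted p = 0.0467), which is 1.54-fold on the scale of signal + 16. Laboratory A gave -0.38 ± 0.17 and laboratory B -0.87 ± 0.17. Against controls the stage 4 mean was lower by 0.39 in laboratory A and higher by 0.24 in laboratory B. At stage 5 it was 0.70 ± 0.12 below controls (adjusted p = 0.000441). The adjusted p of stage 5 against stage 4 stayed under 0.05 in 10 of 24 fits that left out 1 rat and in 11 of 14 other alternatives.

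Khdrbs2 fell by 0.60 ± 0.12 (n = 12 against 12; limma adjusted p = 0.0467), 1.52-fold. In laboratory A the stage 4 rats lay at 7.97 to 8.52 (median 8.26), and 5 of 6 stage 5 rats lay at 7.07 to 7.56, below all of them. The remaining stage 5 rat, rat 1, lay at 8.58, above all of them. In laboratory B the stage 4 rats lay at 8.30 to 8.63 and the stage 5 rats at 7.31 to 8.44, with 4 of 6 below every stage 4 rat. The laboratories gave -0.68 ± 0.17 and -0.52 ± 0.17. Without A stage 5 rat 1 Khdrbs2 differed by -0.70 ± 0.10 (adjusted p = 0.000204), the smallest p of that fit. Its adjusted p stayed under 0.05 in 8 of 24 fits that left out 1 rat and in 10 of 14 other alternatives.

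The promoters of Rasd1 and Khdrbs2 are shown because these were the only genes to pass with all rats. RefSeq's table gives them on GRCr8 as 300 bases around the gene start, for Rasd1 on the minus strand (chr10:45267633-45267932) and for Khdrbs2 on the plus strand (chr9:41942820-41943119). Capitals mark the half-site TGACG of the cyclic AMP response element, searched on both strands together with the full element TGACGTCA, which contains it, and the AP-1 motif TGANTCA.
Rasd1: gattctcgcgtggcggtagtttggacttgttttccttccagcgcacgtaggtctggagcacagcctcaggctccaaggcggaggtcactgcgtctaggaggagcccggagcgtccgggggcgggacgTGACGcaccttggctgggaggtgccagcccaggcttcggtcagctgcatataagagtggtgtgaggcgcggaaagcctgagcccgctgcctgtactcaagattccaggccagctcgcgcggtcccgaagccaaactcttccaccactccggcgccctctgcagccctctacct
Khdrbs2: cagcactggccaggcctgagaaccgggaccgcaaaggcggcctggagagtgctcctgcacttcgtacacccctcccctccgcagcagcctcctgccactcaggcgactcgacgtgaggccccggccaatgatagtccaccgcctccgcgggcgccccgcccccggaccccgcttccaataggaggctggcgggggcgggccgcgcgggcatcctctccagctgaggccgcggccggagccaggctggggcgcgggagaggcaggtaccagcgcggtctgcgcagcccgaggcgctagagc
Rasd1 held 1 half-site and Khdrbs2 none, and neither held a full element or an AP-1 motif. Of 33469 rat promoters of that length, 21.2% held TGACG, 1.83% TGACGTCA and 7.33% TGANTCA. These matches only describe the sequence.

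**Figure D2:**
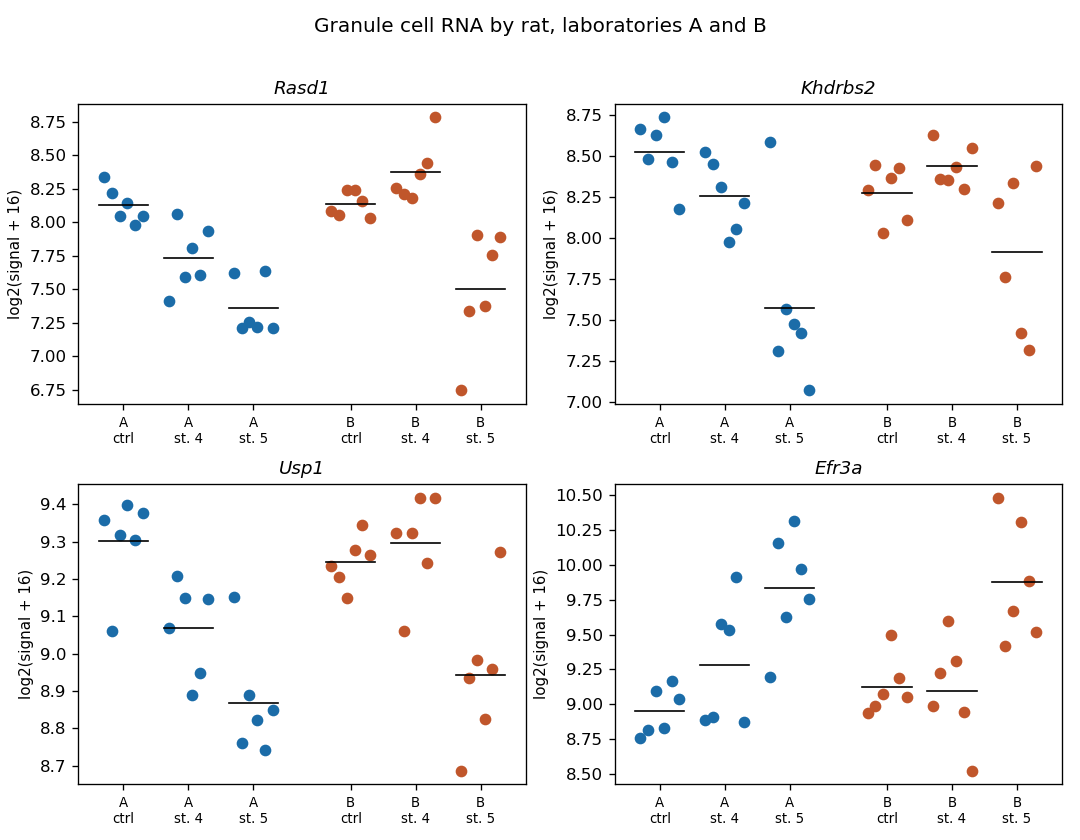
Log2(signal + 16) of Rasd1, Khdrbs2, Usp1 and Efr3a (y axes) in single rats of the control, stage 4 and stage 5 groups of laboratories A and B (x axes); points are rats and bars are means of 6. Rasd1 separates the stages in laboratory B (6.75 to 7.90 at stage 5 against 8.18 to 8.79), while Khdrbs2 of laboratory A has 1 stage 5 rat, at 8.58, above the stage 4 rats.

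The genes next in order missed the threshold. Usp1, a deubiquitinase of the DNA damage response, was lower by 0.28 ± 0.06 and Rabgap1l, a GTPase-activating protein for Rab proteins, by 0.37 ± 0.08 (both adjusted p = 0.0505). Its other probe set gave Usp1 a difference of only -0.04. Efr3a, which anchors a phosphatidylinositol kinase at the plasma membrane, was higher by 0.67 ± 0.15 (adjusted p = 0.0724; 95% interval 0.37 to 0.97). Stage 5 rats of laboratory B lay at 9.41 to 10.48 against 8.52 to 9.60 at stage 4, and those of laboratory A at 9.19 to 10.31 against 8.87 to 9.92. All 4 kept probe sets of Efr3a were higher, by 0.52 to 0.73. When every kept probe set was tested by itself (19856), a check chosen after seeing the data, 1 passed, and it was an Efr3a probe set (0.73 ± 0.14, adjusted p = 0.045). Rasgrp1, which loads Ras with GTP on calcium and diacylglycerol signals, was higher by 0.63 ± 0.14 (adjusted p = 0.0736). Il1rap, the accessory subunit of the interleukin-1 receptor, was lower by 0.46 ± 0.10 and Ddit4l, an inhibitor of mTOR signalling, by 1.11 ± 0.24 (both adjusted p = 0.0719).

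More genes passed in laboratory B than in laboratory A, while the test of the difference between laboratories passed for no gene. Within laboratory B 20 genes passed (0.186%), 5 higher and 15 lower, and 1347 had an unadjusted p under 0.05 (12.6%). These calls were lost in other fits: 0 genes passed with only stage 4 and 5 rats in the fit and 0 with all 164 rats. Leaving out single rats gave 0 (without B stage 4 rat 5 or 6, or stage 5 rat 1 or 4), 3 (stage 4 rat 3), 6 (stage 4 rat 1) and, at most, 165 (stage 5 rat 6). Within laboratory A none passed (0%) by limma and 348 had an unadjusted p under 0.05 (3.24%). Direct comparison of the stage differences of A and B gave 0 genes past the adjusted threshold (0%) and 547 at an unadjusted p under 0.05 (5.1%). Stage 5 rats did not overlap stage 4 rats in 8 genes of laboratory A (0.0746%) and 48 of laboratory B (0.447%), and in no gene the same way in both (0%). The differences of the 2 laboratories correlated at 0.23 over the genes, which are no replicates of each other, and 54.9% of genes had the same sign.

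Among the laboratory B genes were Fos and Arc, immediate early genes that neurons switch on within minutes of strong firing. Fos in laboratory B lay at 6.55 to 7.42 at stage 4 (median 6.99) and at 4.36 to 6.42 at stage 5 (median 5.01), with no overlap. In laboratory A it lay at 6.67 to 8.57 and 6.37 to 7.96, which overlap widely. The differences were -1.78 ± 0.37 and -0.44 ± 0.37, and their average of -1.11 ± 0.27 missed the threshold (adjusted p = 0.111). Arc, which regulates AMPA receptor traffic, fell in laboratory B from 6.97 to 7.76 at stage 4 to 6.03 to 6.93 at stage 5, also without overlap (-1.06 ± 0.21). In laboratory A Arc differed by -0.08 ± 0.21. Sv2a, a synaptic vesicle glycoprotein, rose in laboratory B (0.46 ± 0.10), where 9.25 to 9.95 at stage 5 lay above 8.82 to 9.22 at stage 4. Fst, follistatin, the secreted inhibitor of activin, fell in laboratory B by 1.65 ± 0.37 and differed by -0.21 ± 0.37 in laboratory A. The genes named here for passing in laboratory B were picked after their values were seen.

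**Figure D3:**
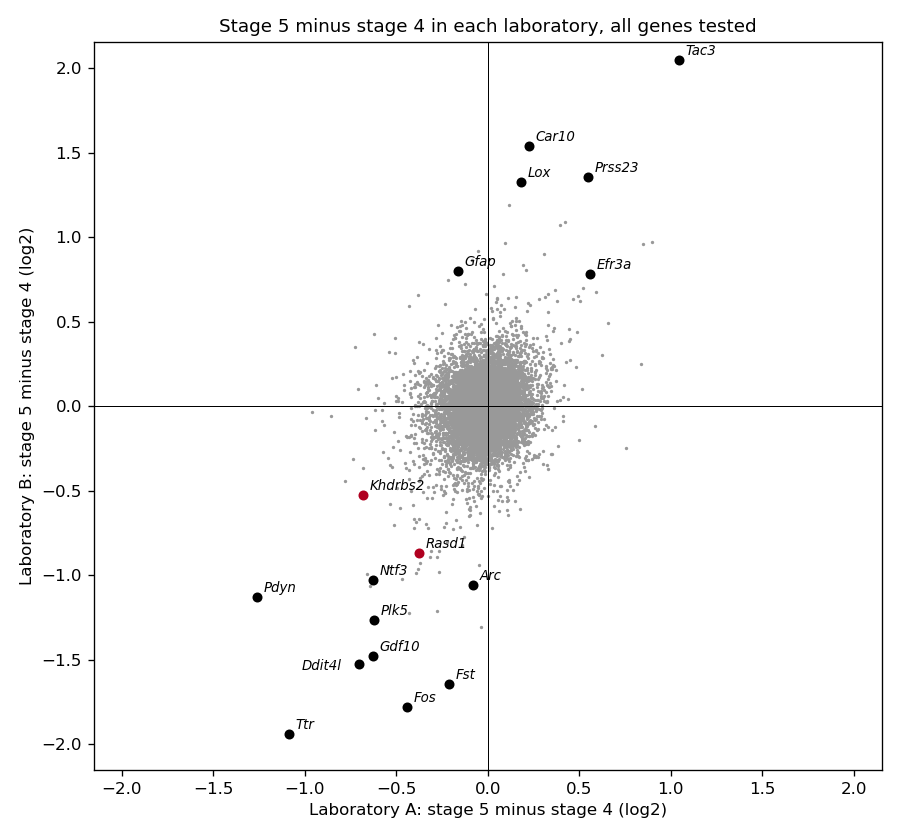
Stage 5 minus stage 4 in laboratory A (x axis) against laboratory B (y axis), on the log2 scale, for all 10731 genes tested; each point is a gene. The 2 genes that passed in the average, Rasd1 and Khdrbs2, are red, and Fos lies farther from 0 in laboratory B (-1.78) than in laboratory A (-0.44).

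For several genes the single rats were spread unevenly around the group mean. Gdf10, a secreted member of the TGF-beta family, lay at 7.32 to 7.74 in laboratory A controls. At stage 4 in that laboratory rats 1, 3, 4 and 5 lay at 5.33, 5.50, 5.48 and 4.85, and rats 2 and 6 at 7.55 and 7.90. At stage 5 rats 2 to 6 lay between 4.93 and 5.31, and rat 1 at 7.49. In laboratory B all 6 stage 4 rats lay at 7.49 to 8.12, against 7.39 to 7.76 in controls. Its stage 5 rats 1, 4 and 5 lay at 5.14, 5.22 and 5.33, rat 2 at 6.65, and rats 3 and 6 at 7.55 and 7.61. Rats of the same stage lay near the control level or far below it, with B stage 5 rat 2 between.

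In laboratory A the same rats lay near or far from control in Plk5, Tac3 and Lox, while laboratory B was less uniform. Plk5, a member of the polo kinase family, lay at 5.75, 6.37, 6.09 and 7.16 in laboratory A stage 4 rats 1, 3, 4 and 5, and at 8.84 and 9.32 in rats 2 and 6. Stage 5 rat 1 of laboratory A had 8.91 for Plk5, where the other 5 lay at 5.81 to 6.60. Tac3, the precursor of the tachykinin neurokinin B, moved the other way: laboratory A stage 4 rats 1, 3, 4 and 5 lay at 10.11, 8.96, 9.29 and 7.98, and rats 2 and 6 at 4.99 and 6.02. At stage 5 rat 1 lay at 5.64, and the other 5 lay at 9.02 to 10.09. In laboratory B Tac3 was 5.17 to 6.56 in all stage 4 rats, whereas at stage 5 rats 1, 4 and 5 lay at 9.65, 9.20 and 9.53, rat 2 at 7.81, and rats 3 and 6 at 5.23 and 5.71. Lox, which cross-links collagen and elastin, lay at 6.85 to 7.51 in laboratory A stage 4 rats 1, 3, 4 and 5, against 5.80 and 5.59 in rats 2 and 6. In laboratory B stage 5, Plk5 lay at 7.35, 6.79 and 6.88 in rats 1, 4 and 5 and at 9.15, 9.17 and 9.96 in rats 2, 3 and 6, against 8.92 to 9.84 in controls. Lox there lay above the highest control (5.80) in all 6 stage 5 rats, at 5.87 in rat 3, 6.31 in rat 2, 6.52 in rat 6 and 7.45 to 8.05 in rats 1, 4 and 5.

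**Figure D4:**
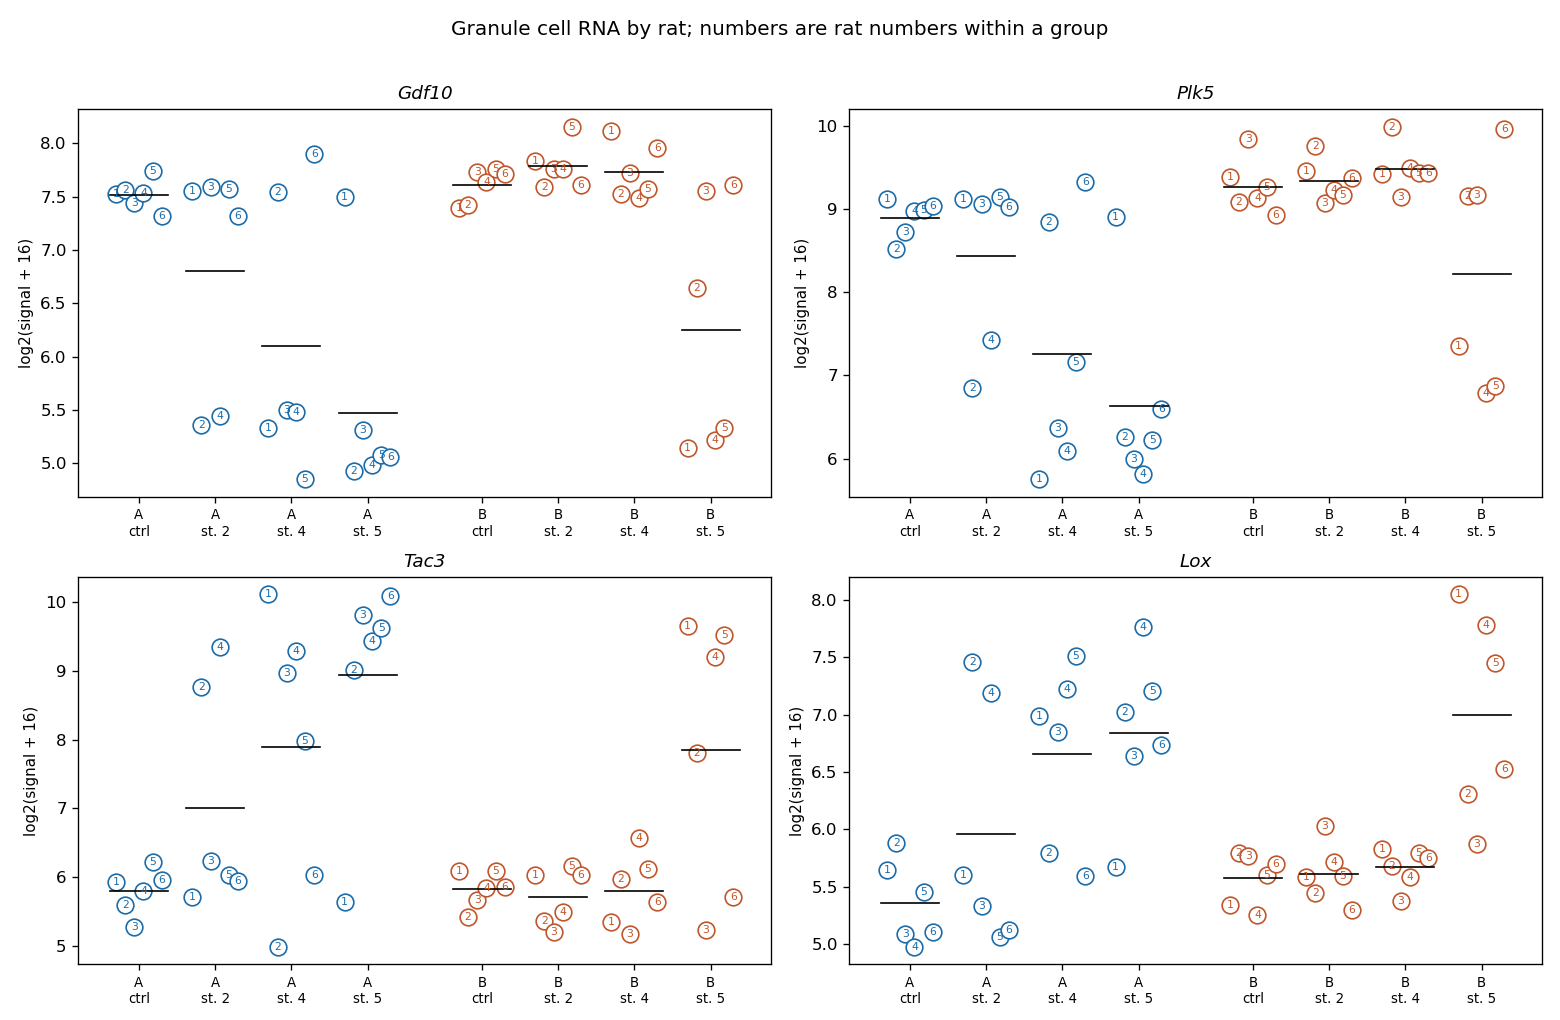
Log2(signal + 16) of Gdf10, Plk5, Tac3 and Lox (y axes) in every kindling rat, by laboratory (A blue, B orange) and stage (x axes); circles carry the rat number within its group and bars are means of 6. Laboratory A stage 4 rats 2 and 6 and stage 5 rat 1 sit at or near the control level in all 4 genes, as do all laboratory B stage 4 rats in Gdf10 (7.49 to 8.12).

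Rats beyond the control range were counted over 8 genes: Tac3, Car10, Lox and Prss23, counted above the highest of the laboratory's 6 controls, and Gdf10, Plk5, Fst and Ntf3, counted below the lowest. Laboratory A stage 4 rats 1, 3, 4 and 5 were beyond controls in 8 of 8 genes, rat 2 in 1 and rat 6 in 0. At stage 5 rats 2 to 6 were beyond controls in 8 of 8, and rat 1 in 0. In laboratory B no stage 4 rat exceeded 3 of 8. Laboratory B stage 5 rats 1, 4 and 5 reached 8 of 8, rat 2 reached 7, rat 3 reached 4 and rat 6 reached 2. Already at stage 2, laboratory A rats 2 and 4 were beyond controls in 8 of 8, the others in 0 to 2. The title of that rat 4 names another model, so its group is less sure. It is not part of the stage 5 against stage 4 comparison. These genes were chosen because earlier results had shown them to move in kindling, so the counts describe rats and test nothing.

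None of these 8 genes passed between the stages, and each had its larger difference in laboratory B. Tac3 differed by 1.04 ± 0.72 in laboratory A and 2.05 ± 0.72 in laboratory B, and the average of 1.55 ± 0.51 did not pass (adjusted p = 0.232; 95% interval 0.52 to 2.57). At stage 4 its mean lay 2.10 above controls in laboratory A and 0.02 below them in laboratory B. For Lox the same stage 4 values were 1.30 and 0.09, for Car10, a carbonic anhydrase-related protein, 1.38 and 0.04, for Fst -1.40 and 0.07, and for Gdf10 -1.42 and 0.12. A test of this difference between laboratories at stage 4, chosen after seeing the data, passed for 0 genes by limma (0%) and gave 539 at an unadjusted p under 0.05 (5.02%). Stage 5 against stage 4 gave 95% intervals, not adjusted for the number of genes, that leave out 0 for all 8 genes. As the 8 were chosen with earlier results of these data known, the intervals are no independent support. For Tac3, Car10, Gdf10, Plk5 and Fst the adjusted p-values were 0.232, 0.232, 0.205, 0.326 and 0.161. Without A stage 5 rat 1 Tac3 passed (1.88 ± 0.47, adjusted p = 0.0451), as did Gdf10 (-1.25 ± 0.30, adjusted p = 0.0305) and Fst (-1.10 ± 0.24, adjusted p = 0.021). Prss23 (1.09 ± 0.24, adjusted p = 0.021) and Ntf3 (-0.99 ± 0.18, adjusted p = 0.00948) passed there as well. In that fit Car10 (adjusted p = 0.0965), Plk5 (adjusted p = 0.0727) and Lox (adjusted p = 0.0696) still did not pass. That rat was singled out after its values in these genes were seen, so passing without it is no independent support. Over the 24 fits that left out 1 rat, Tac3 and Gdf10 passed in 1, Fst and Prss23 in 2 and Ntf3 in 3. Car10, Plk5 and Lox passed in 0 of them.

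Each stage was also compared with the controls of the same laboratories. At stage 4 no gene passed in the average of both laboratories (0%) by limma, with 503 at an unadjusted p under 0.05 (4.69%). At stage 5 765 genes passed (7.13%), 349 higher (3.25%) and 416 lower (3.88%). That count was 130 with all 164 rats in the fit and 1291 with array weights. Tac3 rose over controls by 2.58 ± 0.51 at stage 5, Lox by 1.45 ± 0.25, Car10 by 1.59 ± 0.29 and the protease Prss23 by 1.45 ± 0.25 (adjusted p = 0.00168, 0.000441, 0.000636 and 0.000454). Plk5 fell by 1.66 ± 0.36, Gdf10 by 1.70 ± 0.32, Fst by 1.60 ± 0.26 and the neurotrophin Ntf3 by 1.40 ± 0.21 (adjusted p = 0.00359, 0.000857, 0.000395 and 0.000129). Stage 5 and stage 4 were compared with the same controls, so these values are not independent of each other, and a gene that passed at stage 5 and not at stage 4 is not shown by that to differ between them.

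None of 28 measured immediate early genes passed in the average. At an unadjusted p under 0.05 stood 7 lower (Fos, Arc, Nr4a3, Jun, Dusp1, Egr2 and Homer1) and 0 higher, so that 25% of the list was lower against 5.88% of all genes. This list and those below were chosen with earlier results of these data known, so their shares are no independent evidence. The shares of all genes higher and lower also depended on the scaling, as given above. The list's median difference was -0.09, against -0.01 over all genes, and 13 of 28 members were lower in both laboratories and 1 higher in both. Of all 10731 genes, 3220 were lower in both and 2676 higher in both. Nr4a3, an orphan nuclear receptor, differed by -0.56 ± 0.19 (adjusted p = 0.243), and Jun, the AP-1 partner of Fos, by -0.33 ± 0.13. Egr1 differed by 0.01 and Junb by 0.13, so not every member was lower. Against controls 0 immediate early genes rose at stage 5 and 3 fell, among them Fos by 1.28 ± 0.27 (adjusted p = 0.00256) and Arc by 0.89 ± 0.15 (adjusted p = 0.000406). Without A stage 5 rat 1, Fos (-1.21 ± 0.27, adjusted p = 0.021) and Arc (-0.62 ± 0.15, adjusted p = 0.0345) passed between the stages.

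Of 23 activity-regulated secreted and synaptic genes, among them the neuropeptides, none passed, with 6 higher and 5 lower at an unadjusted p under 0.05. That is 47.8% of the list against 9.71% of all genes, but the list was written with earlier results of these data known and is no independent evidence. Pdyn, prodynorphin, the precursor of the opioid peptide dynorphin stored in granule cells, was lower by a similar amount in both laboratories (-1.26 ± 0.44 and -1.13 ± 0.44; average -1.19 ± 0.31, adjusted p = 0.135). In laboratory A stage 4 rats it lay at 8.48 to 10.65 (median 10.35), and at stage 5 at 7.04 to 10.07 (median 8.95). Laboratory B stage 4 rats lay at 10.10 to 11.01 and stage 5 rats at 6.69 to 11.02, so the ranges overlapped in both laboratories. At stage 4 the Pdyn mean stood 0.25 above controls in laboratory A and 0.27 above them in laboratory B. Npy, neuropeptide Y, differed by 0.08 ± 0.19 (95% interval -0.31 to 0.47), Penk, proenkephalin, by -0.26 ± 0.17 and Trh, the thyrotropin-releasing hormone precursor, by 0.43 ± 0.38. Bdnf, a neurotrophin that seizures induce, differed by 0.30 ± 0.15 (adjusted p = 0.513) and Ntf3 by -0.83 ± 0.21 (adjusted p = 0.124).

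Of 31 activin, BMP and TGF-beta family genes none passed, with 3 higher and 4 lower at an unadjusted p under 0.05 (22.6% of the list against 9.71% of all genes) and a median of -0.02, against -0.01 over all genes. Gdf10 and Fst had the lowest values. The activin subunit Inhba differed by -0.37 ± 0.16, and the receptor Acvr1c (ALK7) by 0.73 ± 0.18 (adjusted p = 0.13). In laboratory B Acvr1c lay at 6.26 to 7.63 at stage 5 against 5.48 to 6.17 at stage 4, without overlap. Without A stage 5 rat 1, at 5.28 for this gene, Acvr1c passed (0.85 ± 0.17, adjusted p = 0.0172). That rat was singled out after values were seen, and Acvr1c passed in 2 of the 24 fits that left out 1 rat.

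Of 27 synaptic vesicle genes none passed. At an unadjusted p under 0.05 stood 5 higher (Sv2a, Syn2, Slc17a7, Stx1a and Syp) and 0 lower, 18.5% of the list against 3.83% of all genes that were higher. The list's median was 0.07, against -0.01 over all genes. Sv2a differed by 0.32 ± 0.07 (adjusted p = 0.079) and Syn2, synapsin 2, by 0.28 ± 0.08 (adjusted p = 0.135). That median was 0.01 in laboratory A and 0.15 in laboratory B. Among 13 GABA-A receptor and GABA signalling genes, 3 were higher and 2 lower at that level, 38.5% of the list against 9.71% of all genes. Gabrd, the delta subunit of extrasynaptic receptors that carry tonic inhibition in granule cells, differed by -0.33 ± 0.11 and the beta 1 subunit Gabrb1 by 0.29 ± 0.09 (both adjusted p = 0.232). Against controls Gabrd fell by 0.39 ± 0.11 at stage 5 (adjusted p = 0.0195). Of 32 potassium channel genes 1 was higher and 4 lower (15.6% of the list), with Kcnv1, a silent modifier subunit, at -0.34 ± 0.10 and Kcnd2, a pore subunit of the A-type current, at 0.25 ± 0.08. Of 21 glutamate receptor genes 3 were higher and 1 lower (19.0% of the list), led by the scaffold Homer3 at 0.36 ± 0.11 (adjusted p = 0.205).

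The other lists also held no gene that passed. Of 32 matrix genes 3 were higher and 2 lower at an unadjusted p under 0.05 (15.6% of the list against 9.71% of all genes), among them the protease Mmp9 (0.57 ± 0.21) and Col25a1, a transmembrane collagen (-0.56 ± 0.16). Of 38 axon guidance and adhesion genes 4 were higher and 4 lower (21.1% of the list), with Sema3e, a semaphorin, at -0.62 ± 0.20. Of 15 granule cell markers 1 was higher and 3 lower (26.7% of the list): Calb1 differed by -0.32 ± 0.12 (adjusted p = 0.333), Plk5 by -0.94 ± 0.36 and Ntf3 as above, while Prox1 differed by 0.07 ± 0.07 (95% interval -0.07 to 0.21). The interneuron, microglial, oligodendrocyte, endothelial and choroid plexus lists held 0 genes at an unadjusted p under 0.05 in either direction. Of 13 astrocyte markers 1 reached it, Gfap, the intermediate filament of reactive astrocytes (0.32 ± 0.14), which differed by -0.16 ± 0.20 in laboratory A and 0.80 ± 0.20 in laboratory B. Ttr, transthyretin of the choroid plexus, varied most between rats, from 5.34 to 11.62 at stage 4 and from 5.03 to 11.74 at stage 5, with a difference of -1.51 ± 0.79 (adjusted p = 0.529). Fewer cells of a type and less RNA per cell cannot be told apart in these samples. Whether the captured share of other cells contributes to any stage difference was not tested.

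**Figure D5:**
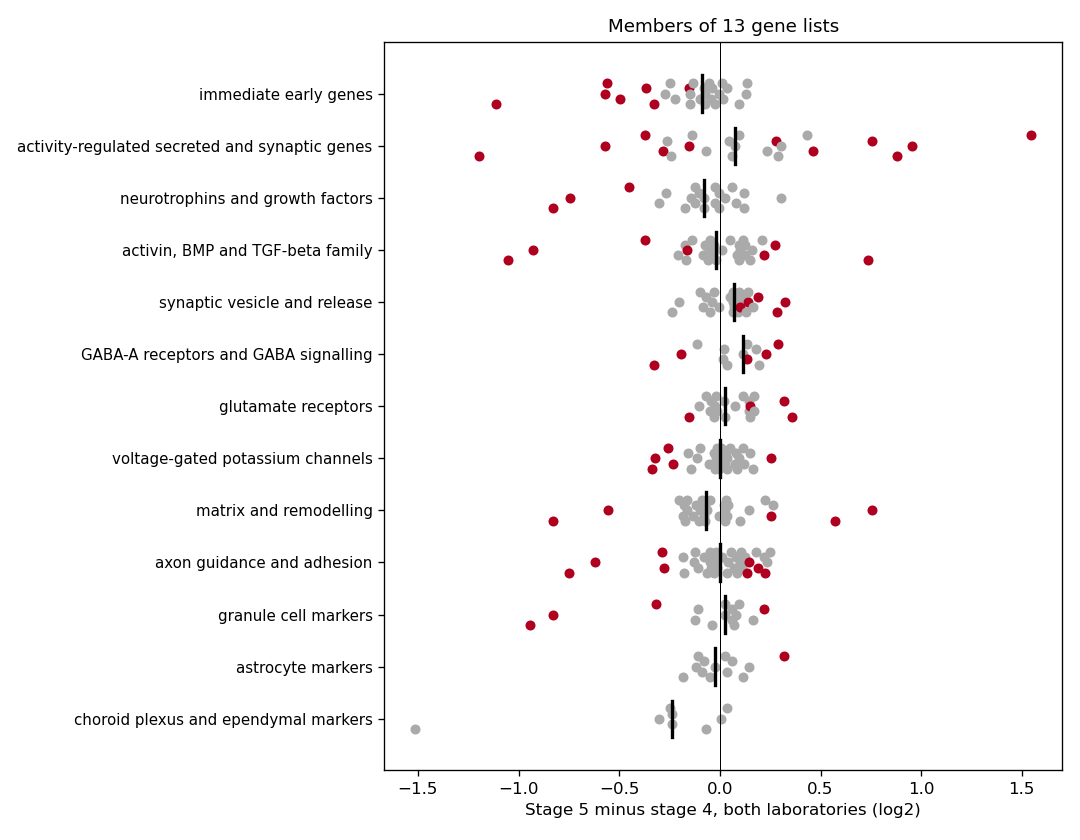
Stage 5 minus stage 4, averaged over both laboratories (x axis, log2), for the measured members of 13 gene lists (y axis); points are genes, red at an unadjusted p under 0.05, and bars are list medians. Immediate early genes have 7 red points, all below 0, and synaptic vesicle genes 5, all above 0.

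The models of status epilepticus were compared with their own controls, which are not shared with the kindling groups. Of all genes 32.2% passed at day 1 after pilocarpine, 41.7% after kainate and 12.6% in self-sustaining status epilepticus. In the same order the shares were 11.7%, 7.99% and 3.15% at day 3, and 8.96%, 6.29% and 0.345% at day 10. Rat 3 of day 1 of self-sustaining status epilepticus carries contradictory labels, so its group is less sure. Rasd1 rose at day 1 after pilocarpine (1.06 ± 0.24) and kainate (0.67 ± 0.14) and fell at day 3 (-1.07 ± 0.24 and -0.97 ± 0.14; limma adjusted p = 0.00139 and 3.76e-06). In self-sustaining status epilepticus Rasd1 differed by -0.28 ± 0.18 at day 1 (adjusted p = 0.291) and fell at day 3 (-0.88 ± 0.18, adjusted p = 0.012). Khdrbs2 fell at day 3 after pilocarpine (-0.92 ± 0.23) and kainate (-1.05 ± 0.15; adjusted p = 0.00413 and 9.78e-07), and at day 10 after kainate (-0.53 ± 0.15, adjusted p = 0.0169). In self-sustaining status epilepticus its day 3 difference of -0.74 ± 0.21 did not pass (adjusted p = 0.0602). Efr3a rose at day 3 and day 10 in pilocarpine, kainate and self-sustaining status epilepticus, by 0.97 to 1.16. Gdf10 fell at day 1 in all 3 models (-2.20, -2.59 and -2.55), where the kindled stage 5 mean stood 1.70 below controls. No test compared kindling with these models.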

How the data were processed

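The authors deposited 1 linear signal intensity for each probe set and array. MAS5 is named, without a version, by the submitters' processing notes. The trimmed mean of each array was 150.04 to 150.06, so the deposited arrays share a scale. Of 31099 probe sets, 57 were array controls, 20826 carried 1 symbol and the rest were not tested as genes. Probe sets above their array's median in at least 6 of 164 rats were kept, and the one with the highest mean stood for its gene (2662 of 10731 genes had several). Where both arrays of a rat existed they were averaged. Signals were transformed as log2(signal + 16). limma 3.58.1 (R 4.3.3, the data.table package in version 1.17.8, plots by matplotlib 3.10.9) fitted 1 mean per group over 48 kindling rats, with Benjamini-Hochberg adjustment over all genes. The fit was also run on simulated data with independent noise, where a changed gene had the same shift in every stage 5 rat. Such data do not cover groups whose rats are spread unevenly. Per the labels the rats of a group are separate animals. The number of arrays limits the precision. Stage 5 minus stage 4 was taken within each laboratory and averaged. The rule for named genes took up to 15 genes each way, first those that passed and then by smallest p with the same sign in both laboratories. It added up to 3 of each gene list by p, a set of genes whatever their values (Nptx2 among them was not measured), and the 5 smallest p of the difference between laboratories. Single-list members outside it were named after their values were seen. The comparison, the lists and these genes were chosen with earlier results of these data known. Rat numbers were not treated as pairs: same-numbered stage 4 and 5 rats correlated at -0.19 to 0.34, with 5 of 12 pairs over 0.1.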

Additional observations from a re-analysis of the deposited data

Results flagged for a closer look

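Over 46 named genes, 184 groups of 6 rats were examined for a rat far from the other 5, measured as its gap to the nearest rat over the range of the group and set against Dixon's critical value. Such a rat was found in 14 groups (7.61%). For independent groups chance gives about 1 in 20. These genes share their rats, and many were picked by their values, so the share tests nothing. Of the 14 cases, 10 were laboratory A stage 5 rat 1. It was far above the other 5 rats in Khdrbs2 (8.58, nearest 7.56), Usp1 (9.15, nearest 8.89), Ddit4l (8.03, nearest 6.94), Ntf3 (10.39, nearest 8.91), Fst (7.22, nearest 5.41), Gdf10 (7.49, nearest 5.31) and Plk5 (8.91, nearest 6.60). It was far below them in Acvr1c (5.28, nearest 6.44), Syn2 (9.98, nearest 10.38) and Tac3 (5.64, nearest 9.02). The other 4 were single rats at stage 4: laboratory A rat 4 was low in Pdyn (8.48, nearest 10.21), and in laboratory B rat 4 was high in Calhm2 (8.86, nearest 8.67), rat 6 in Prkar2b (9.88, nearest 9.74) and rat 2 in Tef (8.96, nearest 8.85). The cause was not tested.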

How the results depend on the processing

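Genes passing in the average of the laboratories numbered 2 as reported, 4 with a pseudocount of 1, 1 with arrays centred on their median, 1 with all 164 rats in the fit, 0 with only stage 4 and 5 rats, 0 with the repeat array alone, 5 with the mean of all kept probe sets and 91 with array weights. Leaving out each rat gave 0 to 68. With the replicate number as a block the count was 5, although no label says that the numbers pair the rats. Laboratory B had 20, and 13 with quantile normalization, 8 centred, 0 with only stage 4 and 5 rats, 0 with all 164, 43 with weights, 12 with mean probe sets, 45 fitted alone and 0 to 165 without single rats. Laboratory A had 0 to 1 without single rats and 0 otherwise. Stage 5 minus control gave 765, and 130 with all 164 rats and 1291 with weights. The test between laboratories and stage 4 minus control stayed at 0 under every alternative run. Among named genes 3 values near 0 turned: Acta2 to -0.000207 without laboratory B stage 5 rat 6 (range 0.10 at most), and Npy to -0.00622 without laboratory A stage 4 rat 6 and to -0.0373 without A stage 5 rat 2 (range up to 0.16). Of the other named-gene values, 143 came to pass, 37 ceased to pass and 4550 kept their side. The causes were not tested. Signal near background limits weakly expressed genes.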
